A study of Mus musculus with 14 samples.

Results

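Homozygous Polg mutant progenitors carrying a marker-only retrovirus (Hom-Ctrl, 2 arrays) were compared with wild-type progenitors carrying the same retrovirus (WT-Ctrl, 3 arrays). These 5 arrays, chosen by their titles, belong to a series of 14 arrays in 6 groups. The cells were hematopoietic progenitor cells (HPCs), which is the name the labels give to lineage-negative mouse bone marrow cells, isolated with magnetic beads and kept in culture for 48 h before transduction. Hom-Ctrl cells came from Polgmut/mut mice and WT-Ctrl cells from Polgwt/wt mice. Both groups received MSCV-IRES-YFP, a murine stem cell virus vector that carries yellow fluorescent protein and no added gene, from the packaging line GP+E86. Cells of heterozygous mice with the same vector (Het-Ctrl, 3 arrays) and cells with MSCV-NMyc-IRES-YFP, which adds N-Myc (Hom-NMyc, WT-NMyc and Het-NMyc, 2 arrays each), enter the same statistical model, where they help to estimate the spread between arrays, and are otherwise set beside single results. The labels call the arrays biological replicates, and give no age, sex or number of mice for them. All cells of the 5 arrays had thus been cultured and infected, and no uninfected or freshly isolated cells were analysed here.

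Polg encodes the catalytic subunit of DNA polymerase gamma, which copies mitochondrial DNA (mtDNA) and proofreads the copy. Polymerase mutants that proofread poorly gather mtDNA mutations and deletions as cells divide, and their mice are known for anemia, altered blood cell differentiation and early ageing. Mitochondrial DNA encodes core subunits of respiratory complexes I, III, IV and V. Mitochondrial dysfunction is known to reach the nucleus through the integrated stress response, in which the transcription factor ATF4 drives genes of amino acid synthesis and folate metabolism, and DNA damage through p53, which drives genes of arrest, death and repair. The study was set up to follow expression changes that come with somatic mtDNA mutations and with N-Myc, and the comparison here asks what the homozygous genotype changes without added N-Myc.

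All values are log2 array values as deposited, and a difference of 1 is a 2-fold change. Differences are Hom-Ctrl minus WT-Ctrl with the standard error (SE) of a limma model over all 14 arrays, and a probe set was called when its adjusted p, by limma with Benjamini-Hochberg adjustment over 22206 probe sets, was under 0.05. With 2 and 3 arrays, the number of arrays limits the precision. The arrays correlated at 0.987 across probe sets within Hom-Ctrl, at 0.985 to 0.986 within WT-Ctrl and at 0.979 to 0.986 between the groups. The first Hom-Ctrl array stood apart in Mycn, the gene that the Ctrl vector should not carry. Mycn was at 9.77 and 7.61 in the Hom-Ctrl arrays, against 7.58, 7.76 and 7.43 in the WT-Ctrl arrays, and at 12.15 to 12.38 in the NMyc arrays. Counts of the main gene groups are therefore also given without the first Hom-Ctrl array. The Y-linked genes Eif2s3y, Kdm5d and Uty lay under the floor, which is the median of an array's negative control sets, in replicate 1 of each Ctrl group and above it in the other Ctrl arrays, so each genotype holds arrays of both kinds. The array measures the amount of Polg transcript and not its sequence, so it does not check the genotype. The Polg transcript was at 7.04 and 6.95 in the Hom-Ctrl arrays, against 6.91, 7.67 and 7.19 in the WT-Ctrl arrays, a difference of -0.26 (SE 0.19, adjusted p = 0.539 by limma).

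Of the 22206 probe sets, 868 (3.91%) were called, 450 (2.03%) higher and 418 (1.88%) lower in Hom-Ctrl cells. At least 2-fold changes made up 115 of the rises and 137 of the falls. The median difference over all tested probe sets was -0.0012. In each of the 868 called sets the 2 Hom-Ctrl arrays lay outside the range of the 3 WT-Ctrl arrays. Over all tested sets, both Hom-Ctrl arrays lay above all WT-Ctrl arrays in 14.1% and below them in 13.7%. The number of calls depended on the arrays in the fit. It was 332 (144 higher, 188 lower) with the 8 Ctrl arrays alone and 182 (78 higher, 104 lower) with the 5 arrays compared. It also rested on the second Hom-Ctrl array. Without it 99 sets were called (43 higher, 56 lower), without the first Hom-Ctrl array 606 (335 higher, 271 lower), and without the third WT-Ctrl array 472 (224 higher, 248 lower).

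The genes with the largest rises were an assortment of surface proteins, enzymes and p53 targets. Eda2r, a receptor of the tumour necrosis factor family and a p53 target, was at 6.58 and 6.58 in the Hom-Ctrl arrays, against 4.86, 3.94 and 4.50 in the WT-Ctrl arrays. Because 2 of the WT-Ctrl arrays did not exceed the floor, the rise was at least 1.77 (3.41-fold, adjusted p = 0.000321 by limma). Itm2a, a type II membrane protein, was at 7.50 and 7.58 in the Hom-Ctrl arrays, against 6.30, 5.58 and 5.35 in the WT-Ctrl arrays, a rise of 1.80 (SE 0.25, adjusted p = 0.00185 by limma). Eng, or endoglin, a co-receptor of the transforming growth factor beta family, was at 8.45 and 8.68 in the Hom-Ctrl arrays, against 7.04, 6.79 and 7.20 in the WT-Ctrl arrays, a rise of 1.55 (SE 0.23, adjusted p = 0.00225 by limma). Both arrays of Hom-Ctrl cells were above all of WT-Ctrl cells for each of these genes, with gaps wider than the spread within either group. Il2ra, the alpha chain of the interleukin-2 receptor, was at 6.84 and 7.20 in the Hom-Ctrl arrays, against 5.71, 5.33 and 4.56 in the WT-Ctrl arrays, where 1 WT-Ctrl array did not exceed the floor. Mtap, the enzyme that opens methionine salvage, was at 9.88 and 10.14 in the Hom-Ctrl arrays, against 8.46, 8.66 and 8.22 in the WT-Ctrl arrays, a 2.96-fold rise (adjusted p = 0.000325 by limma). The remaining large rises were those of Olfr266, an olfactory receptor gene (2.08), Ptgds (described with the p53 targets), Zmat3, the membrane mucin Muc15 (at least 1.47, since 2 WT-Ctrl arrays did not exceed the floor), Enpp5 of the ectonucleotide pyrophosphatase family (1.62), Rnase12 (1.60), Pglyrp2, an amidase that cleaves peptidoglycan (1.56), Thy1 (1.55), Prrg4 (1.52) and Psrc1. Muc15 and Thy1 were the least even of them. Muc15 was at 7.31 and 5.38 in the Hom-Ctrl arrays, against 5.06, 4.65 and 4.45 in the WT-Ctrl arrays, and Thy1, a surface glycoprotein of lymphoid and stromal cells, at 10.80 and 10.60 in the Hom-Ctrl arrays, against 10.10, 9.35 and 8.02 in the WT-Ctrl arrays.

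**Figure D1:**
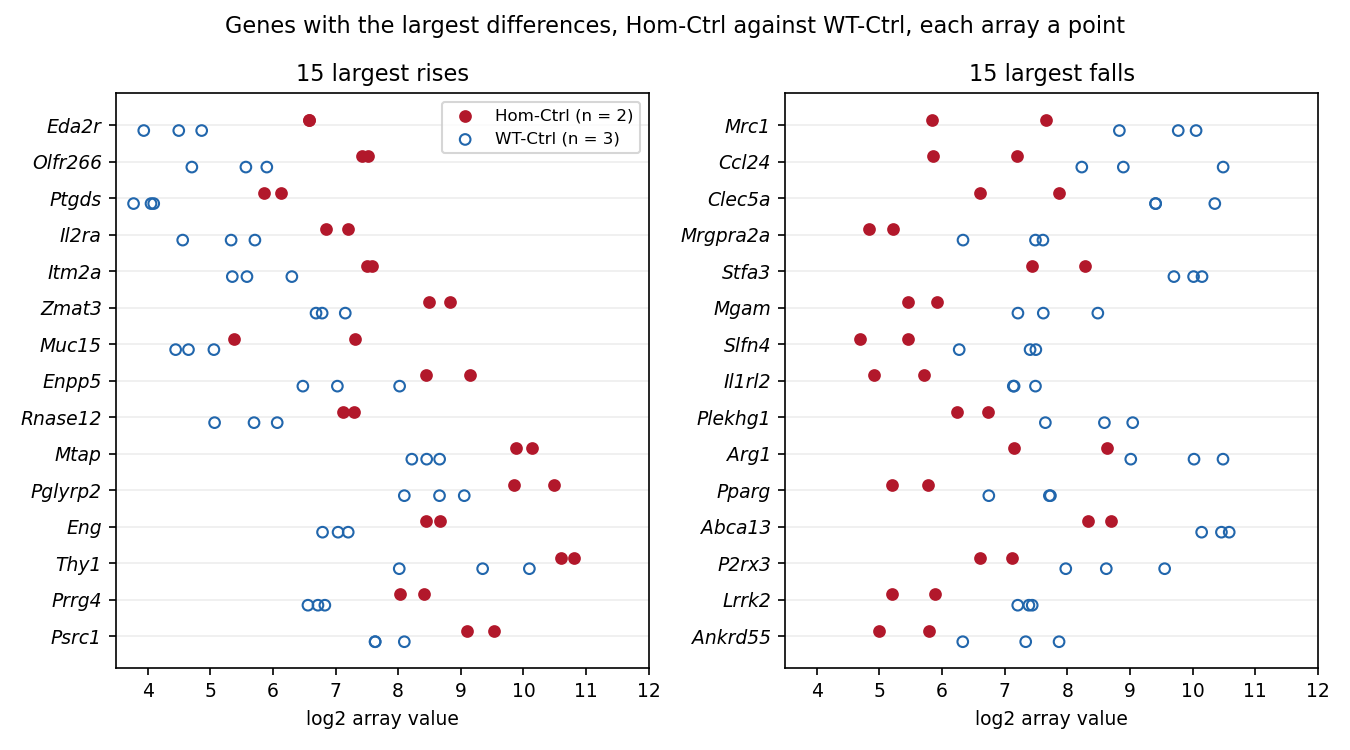
Log2 array values of the 15 genes with the largest rises (left) and the 15 with the largest falls (right) among called probe sets with 1 gene symbol; each filled point is a Hom-Ctrl array (n = 2) and each open point a WT-Ctrl array (n = 3). The groups do not overlap for any of the 30 genes, and the 2 Hom-Ctrl arrays lie farthest apart for Muc15, Mrc1 and Arg1.

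The largest falls included several genes known from macrophages and neutrophils. Mrc1, the macrophage mannose receptor, was at 7.66 and 5.84 in the Hom-Ctrl arrays, against 9.77, 10.06 and 8.83 in the WT-Ctrl arrays, 6.99-fold lower (-2.81, SE 0.56, adjusted p = 0.0126 by limma). Ccl24, a chemokine that attracts eosinophils, was at 7.20 and 5.86 in the Hom-Ctrl arrays, against 8.89, 10.49 and 8.23 in the WT-Ctrl arrays, and Clec5a, a myeloid lectin receptor, at 7.86 and 6.61 in the Hom-Ctrl arrays, against 9.41, 9.41 and 10.36 in the WT-Ctrl arrays. All Hom-Ctrl values were below all WT-Ctrl values, but the 2 Hom-Ctrl arrays differed from each other by more than 1 log2 unit in each, the second being the lower. Pparg, a nuclear receptor of lipid metabolism and of macrophage differentiation, was at 5.21 and 5.78 in the Hom-Ctrl arrays, against 6.75, 7.71 and 7.73 in the WT-Ctrl arrays, a difference of -1.90 (SE 0.29, adjusted p = 0.00238 by limma). Abca13, a large membrane transporter, was at 8.70 and 8.34 in the Hom-Ctrl arrays, against 10.15, 10.59 and 10.46 in the WT-Ctrl arrays (-1.88, SE 0.21, adjusted p = 0.000422 by limma). Il1rl2, the receptor of interleukin-36, was at 5.71 and 4.92 in the Hom-Ctrl arrays, against 7.14, 7.15 and 7.49 in the WT-Ctrl arrays (-1.94), and the kinase gene Lrrk2 at 5.89 and 5.19 in the Hom-Ctrl arrays, against 7.21, 7.39 and 7.44 in the WT-Ctrl arrays (-1.80). In these 4 genes the Hom-Ctrl arrays lay within 1 log2 unit of each other and clear of the WT-Ctrl range. The other large falls were those of Mrgpra2a (-2.12), Stfa3 (-2.09), the maltase-glucoamylase gene Mgam (-2.08), Slfn4 of the Schlafen family (at least 3.90-fold, since 1 Hom-Ctrl array did not exceed the floor), Plekhg1 (-1.94), Arg1, the arginase of alternatively activated macrophages (-1.94), the ATP-gated channel P2rx3 (-1.86) and Ankrd55 (-1.78). Mrgpra2a and the Stfa genes have near-identical copies, so their probe sets may read more than 1 gene.

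Part of the p53 targets were higher in Hom-Ctrl cells, with the fewest rises in the list of repair and feedback. Of 78 measured members of 4 p53 lists, 23 (29.5%) rose and 0 fell, against 2.03% and 1.88% of all tested probe sets, and their median difference was 0.26, against -0.0012 over all tested sets. By function, 6 of 17 genes of arrest and growth restraint rose, 4 of 17 of the death genes, and 11 of 25 further targets described in mouse cells. Of repair and feedback 2 of 19 rose, Mdm2 and Ercc5. That list had a median of 0.019, and 11 of its differences were above 0. Without the first Hom-Ctrl array 17 of the 78 were called higher, and without the second 8. With the 5 arrays fitted alone the number was 12. The lists, here and below, were chosen with earlier results of these data known, so these shares are descriptions and no independent test.

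Cdkn1a, which encodes the cyclin-dependent kinase inhibitor p21, was at 12.14 and 12.52 in the Hom-Ctrl arrays, against 11.26, 10.92 and 10.83 in the WT-Ctrl arrays. It rose 2.51-fold (log2 1.33, SE 0.18, adjusted p = 0.00166 by limma). Ccng1, or cyclin G1, a target that acts back on p53, was at 11.23 and 11.43 in the Hom-Ctrl arrays, against 10.51, 9.97 and 10.10 in the WT-Ctrl arrays (1.14, SE 0.19, adjusted p = 0.0039 by limma). Both genes were higher in each Hom-Ctrl array than in any WT-Ctrl array, and so was Mdm2, the ubiquitin ligase that degrades p53, at 10.49 and 10.87 in the Hom-Ctrl arrays, against 9.85, 9.66 and 9.72 in the WT-Ctrl arrays (0.94, adjusted p = 0.00354 by limma). Zmat3, an RNA-binding zinc finger protein, was at 8.82 and 8.50 in the Hom-Ctrl arrays, against 7.16, 6.79 and 6.69 in the WT-Ctrl arrays, and Phlda3, an inhibitor of the kinase Akt, at 7.41 and 7.29 in the Hom-Ctrl arrays, against 6.36, 5.87 and 5.81 in the WT-Ctrl arrays. Gtse1, a protein of G2 and S phase that acts on p53 (0.99), and the phosphatase gene Ptp4a3 (1) completed the called members of the arrest list. Among death genes, Perp, a membrane protein of p53-dependent death, was at 11 and 11.26 in the Hom-Ctrl arrays, against 10.30, 10.33 and 9.66 in the WT-Ctrl arrays (1.03, adjusted p = 0.0176 by limma), and Tnfrsf10b, a receptor of the ligand TRAIL, at 8.16 and 8.36 in the Hom-Ctrl arrays, against 7.47, 7.10 and 7.34 in the WT-Ctrl arrays (0.96, adjusted p = 0.0048 by limma). Ei24 rose by 0.92. Of the repair genes, the endonuclease gene Ercc5 was at 9.06 and 8.74 in the Hom-Ctrl arrays, against 8.09, 8.06 and 8.13 in the WT-Ctrl arrays (0.81, adjusted p = 0.0119 by limma), with Hom-Ctrl values again above all WT-Ctrl values.

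The further targets that rose were led by Ptgds, a prostaglandin D synthase, at 6.12 and 5.85 in the Hom-Ctrl arrays, against 4.05, 4.10 and 3.77 in the WT-Ctrl arrays. No WT-Ctrl array exceeded its floor, so the rise was at least 1.31 (2.48-fold, adjusted p = 0.000321 by limma). Psrc1, a spindle-associated protein, was at 9.09 and 9.52 in the Hom-Ctrl arrays, against 8.10, 7.63 and 7.63 in the WT-Ctrl arrays (1.52, SE 0.19, adjusted p = 0.000728 by limma). Abhd4 (1.22), the epoxide hydrolase gene Ephx1 (1.17), the thiamine transporter gene Slc19a2 (1.04), Dglucy (1.01), Crip2 (0.80), the adenylate kinase gene Ak1 (0.73), the ferrireductase gene Steap3 (0.72), Sesn3 (0.68) and Dcxr (0.68) rose by less. Other well-known targets did not pass the test. Bbc3, which encodes the death protein PUMA, was at 7.62 and 7.30 in the Hom-Ctrl arrays, against 7.64, 7.56 and 7.58 in the WT-Ctrl arrays (-0.14, adjusted p = 0.707 by limma), and Btg2 at 9.54 and 9.27 in the Hom-Ctrl arrays, against 9.66, 9.81 and 9.44 in the WT-Ctrl arrays (-0.23, adjusted p = 0.607 by limma). For both, the values of the groups overlapped. The differences were 0.20 for Pmaip1, 0.03 for Fas, 0.38 for Sesn1, 0.01 for Ddb2, -0.15 for Xpc, -0.64 for Rrm2b and -0.60 for Gadd45a, each with an adjusted p above 0.05 by limma. In Het-Ctrl cells Cdkn1a was at 11.34, 11.24 and 10.80 and Zmat3 at 7.14, 6.72 and 6.34, within or near the WT-Ctrl range.

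**Figure D2:**
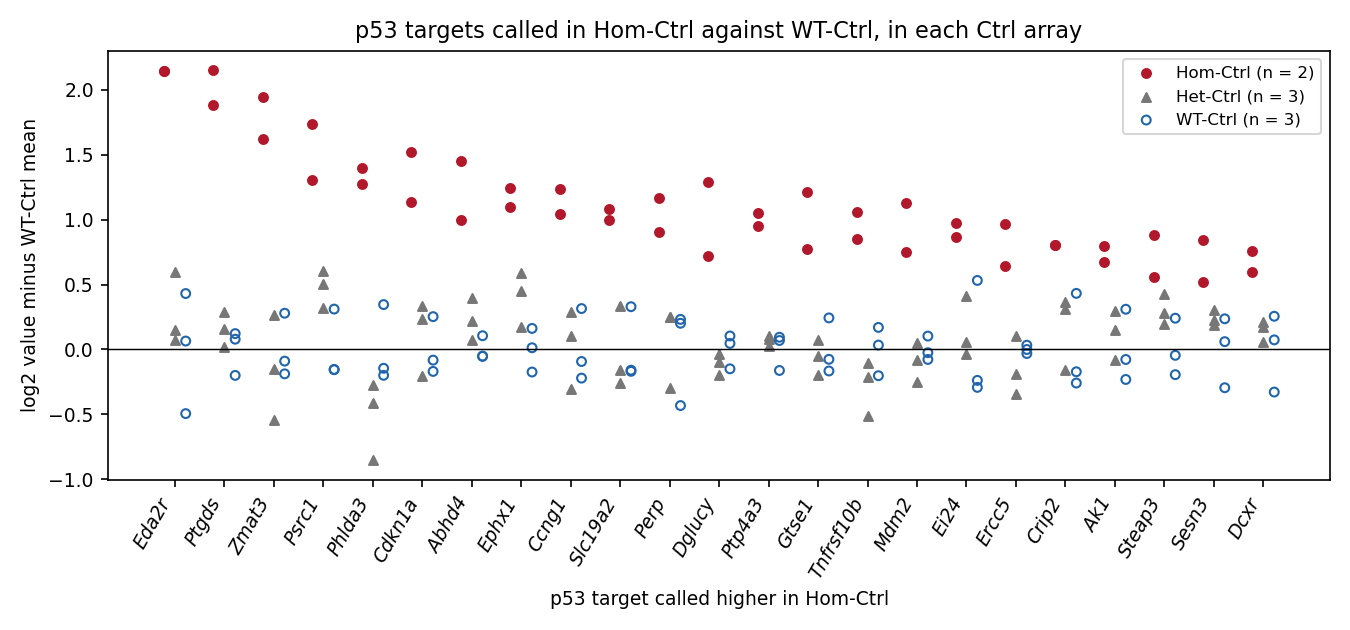
Log2 value minus the WT-Ctrl mean for the 23 p53 targets called higher in Hom-Ctrl cells, in each Hom-Ctrl (filled circles, n = 2), Het-Ctrl (triangles, n = 3) and WT-Ctrl array (open circles, n = 3). The members shown were chosen by the call, so their rise is no second test; the Het-Ctrl points lie near the WT-Ctrl points and below both Hom-Ctrl points in every gene.

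Promoter sequence was set beside these genes for the binding motif of p53, since they rose together. RefSeq promoter windows of assembly GRCm38.p6 were searched over the 250 bases before each start, on both strands, for the 10-base p53 half-site. Of the 23 genes that rose, 19 had a window and 4 held a match, namely Cdkn1a, Ccng1, Mdm2 and Ei24, against 9 of 49 of the list members not called and 8.2% of all 27025 genes with a window. For 3 of them a match is shown here in capitals, 5′ to 3′ on the strand of the gene. Cdkn1a held another match farther from its start, left in lower case below.
Cdkn1a, plus strand, chr17:29090903-29090962: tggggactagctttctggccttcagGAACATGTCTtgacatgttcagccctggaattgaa
Ccng1, minus strand, chr11:40755437-40755496: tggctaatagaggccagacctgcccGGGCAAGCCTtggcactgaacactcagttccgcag
Mdm2, minus strand, chr10:117710910-117710969: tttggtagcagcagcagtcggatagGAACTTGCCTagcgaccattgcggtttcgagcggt
A match of this kind is a description of the letters in the window. Sites outside the window were not searched, and binding was not measured.

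Genes of the integrated stress response fell in part. Of 38 measured members of the ATF4 list, 9 fell and 0 rose, against 1.88% and 2.03% of all tested probe sets, and 35 of the 38 differences were below 0, with a median of -0.41. Atf4 itself was at 11.12 and 11.07 in the Hom-Ctrl arrays, against 11.80, 11.70 and 11.96 in the WT-Ctrl arrays (-0.73, SE 0.15, adjusted p = 0.0124 by limma). Chac1, which degrades glutathione and is a sensitive ATF4 target, was at 6.90 and 6.94 in the Hom-Ctrl arrays, against 7.88, 8.21 and 8.27 in the WT-Ctrl arrays (-1.20, SE 0.17, adjusted p = 0.00157 by limma). The 2 Hom-Ctrl arrays lay within 0.1 of each other in both genes and below all WT-Ctrl arrays. Vldlr, a lipoprotein receptor induced by this pathway, was at 6.86 and 6.96 in the Hom-Ctrl arrays, against 7.98, 7.84 and 7.74 in the WT-Ctrl arrays, and Jdp2, a transcription factor that pairs with JUN, at 8.70 and 8.63 in the Hom-Ctrl arrays, against 9.68, 9.34 and 9.59 in the WT-Ctrl arrays. Atf5, a related transcription factor (-1.28), Trib3, a pseudokinase that restrains the response (-0.94), Cth, which makes cysteine (-1.20), the mitochondrial folate enzyme gene Mthfd2 (-0.81) and Mars1, the methionyl-tRNA synthetase (-0.91), also fell. Members that did not pass included the asparagine synthetase gene Asns at 10.54 and 10.91 in the Hom-Ctrl arrays, against 11.18, 10.69 and 11.50 in the WT-Ctrl arrays (-0.40, adjusted p = 0.364 by limma), the serine synthesis gene Psat1 (-0.06) and Ddit3, which encodes CHOP (0.19). Outside the list, Cars (-0.77) and Lars (-0.69), the cytosolic tRNA synthetases of cysteine and leucine, fell with Mars1, which made 3 falls and 0 rises among 28 genes of translation and tRNA charging, a count that was 0 without the second Hom-Ctrl array, 5 without the second WT-Ctrl array and 0 with the 5 arrays fitted alone. Without the first Hom-Ctrl array 7 ATF4 list members were called lower, without the second 3, and without the second WT-Ctrl array 15. With the 5 arrays fitted alone the number was 3.

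Several chaperones of the endoplasmic reticulum rose over the same arrays. Of 14 measured genes of the unfolded protein response, 6 rose and 0 fell, against 2.03% and 1.88% of all tested probe sets, with a median of 0.29 against -0.0012 over all of them. Hspa5, the chaperone BiP, was at 12.41 and 12.66 in the Hom-Ctrl arrays, against 11.54, 11.87 and 11.73 in the WT-Ctrl arrays (0.83, SE 0.17, adjusted p = 0.0166 by limma). Calr, the calcium-binding chaperone calreticulin, was at 12.48 and 12.80 in the Hom-Ctrl arrays, against 11.49, 12.01 and 11.60 in the WT-Ctrl arrays (0.94, SE 0.19, adjusted p = 0.0119 by limma). Creld2 was at 9.29 and 9.63 in the Hom-Ctrl arrays, against 8.05, 8.99 and 8.19 in the WT-Ctrl arrays (1.05), the disulfide isomerase gene Pdia6 at 11.68 and 11.71 in the Hom-Ctrl arrays, against 10.80, 11.10 and 10.34 in the WT-Ctrl arrays (0.95), and Sdf2l1 (0.97) and Hsp90b1, the chaperone GRP94 (0.63), rose too. In all 6 the Hom-Ctrl arrays were the higher ones, and the second WT-Ctrl array came closest to them. Xbp1, the transcription factor of the pathway, was at 11.43 and 11.93 in the Hom-Ctrl arrays, against 11.59, 11.34 and 11.49 in the WT-Ctrl arrays (0.20, adjusted p = 0.572 by limma), and Dnajb9, one of its targets, had a difference of 0.25 (adjusted p = 0.651 by limma). This count depended on single arrays and on the fit. It was 3 without the first Hom-Ctrl array, 0 without the second, 3 without the first WT-Ctrl array, 2 without the third and 0 with the 5 arrays fitted alone.

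The promoter windows of both stress lists were searched in the same way, since one list fell and the other rose. The motif of ATF4 and C/EBP partners, spelled TGATGNAA, was in 3 of the 8 genes that fell and had a window, in 6 of 24 list members not called, and in 3.91% of all genes with a window. The endoplasmic reticulum stress element, spelled CCAAT, any 9 bases and CCACG, was in 5 of the 6 chaperone genes that rose, in 1 of 7 list members not called and in 0.13% of all genes with a window. The matches are in capitals and may lie on either strand. The first 3 are the genes that fell.
Chac1, plus strand, chr2:119351024-119351081: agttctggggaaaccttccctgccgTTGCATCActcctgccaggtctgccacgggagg
Vldlr, plus strand, chr19:27216795-27216852: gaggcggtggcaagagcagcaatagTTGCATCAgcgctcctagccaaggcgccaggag
Jdp2, plus strand, chr12:85599358-85599415: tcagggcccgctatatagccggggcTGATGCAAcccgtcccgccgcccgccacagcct
Hspa5, plus strand, chr2:34772000-34772068: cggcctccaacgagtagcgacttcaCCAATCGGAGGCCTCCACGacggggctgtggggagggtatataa
Calr, minus strand, chr8:84847050-84847118: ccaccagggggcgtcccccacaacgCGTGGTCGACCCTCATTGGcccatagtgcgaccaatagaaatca
Pdia6, plus strand, chr12:17266466-17266534: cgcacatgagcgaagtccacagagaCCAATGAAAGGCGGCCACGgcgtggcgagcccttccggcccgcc
Creld2, plus strand, chr15:88819495-88819563: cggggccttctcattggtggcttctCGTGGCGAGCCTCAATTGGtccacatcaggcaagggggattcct
Hsp90b1, minus strand, chr10:86705613-86705681: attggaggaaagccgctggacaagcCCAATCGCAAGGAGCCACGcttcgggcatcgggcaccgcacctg
Hsp90b1 held a second match nearer its start. Sdf2l1 rose without a match in its window.

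**Figure D3:**
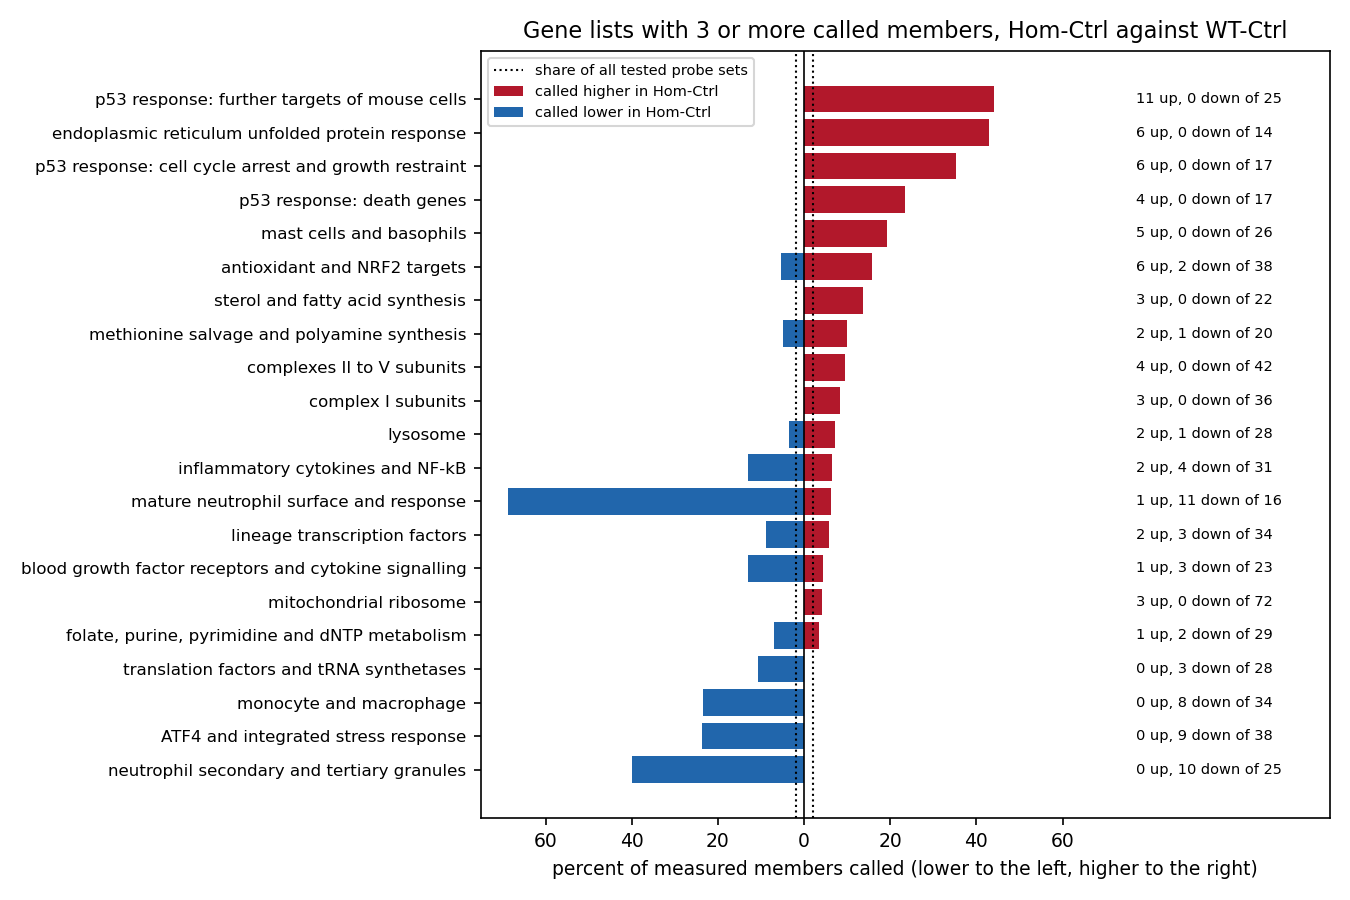
Percent of the measured members of each gene list called higher (right) or lower (left) in Hom-Ctrl than in WT-Ctrl cells, for the lists with 3 or more called members; dotted lines give the shares of all tested probe sets (2.03% higher, 1.88% lower). The p53 and unfolded protein response lists extend to the right and the mature neutrophil, secondary granule, monocyte and ATF4 lists to the left.

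Many genes of later neutrophil stages fell. Of 16 measured genes of mature neutrophils, 11 fell and 1 rose (median -1). Of 25 genes of the secondary and tertiary granule stage 10 fell and 0 rose (median -0.59). This list groups genes by stage of expression, and not all of them encode granule proteins. Over all tested probe sets 1.88% fell and 2.03% rose, with a median of -0.0012. Of 14 genes of primary granules and promyelocytes, 1 fell and 1 rose (median -0.003). The fall was Cebpe, which also acts in later granulocyte stages, and the rise Nkg7, which the list of T and NK cell genes holds too. In these bulk samples, fewer cells of a type and less RNA per cell cannot be told apart. The summed linear signal of the mature list was 14370 and 10360 in the Hom-Ctrl arrays, against 24450, 22740 and 21340 in the WT-Ctrl arrays. That of the secondary list was 72220 and 64180 in the Hom-Ctrl arrays, against 94520, 90190 and 88350 in the WT-Ctrl arrays. That of the primary list was 41200 and 46270 in the Hom-Ctrl arrays, against 41340, 38240 and 39790 in the WT-Ctrl arrays. The groups were apart in the later lists and overlapped in the primary one, and the difference between the lists was not tested. Without the second Hom-Ctrl array the falls numbered 1 in the mature list, where 4 of the 11 are stefin copies, and 4 in the secondary list.

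Ltf, which encodes the secondary granule protein lactoferrin, was at 10.81 and 10.29 in the Hom-Ctrl arrays, against 11.95, 12 and 11.98 in the WT-Ctrl arrays (-1.42, SE 0.17, adjusted p = 0.000585 by limma). Cd177, a surface protein of neutrophils, was at 9.31 and 8.90 in the Hom-Ctrl arrays, against 10.72, 10.58 and 10.65 in the WT-Ctrl arrays (-1.55, SE 0.16, adjusted p = 0.000321 by limma). The WT-Ctrl arrays lay within 0.15 of each other in both, and the Hom-Ctrl arrays were far below them. Wfdc21 (-1.35), Ifitm6 (-1.40), the NADPH oxidase subunit gene Ncf4 (-1.17), the collagenase gene Mmp8 (-1.13), Adpgk (-0.97), the ficolin gene Fcnb (-0.88), Padi4, which citrullinates histones (-0.76), and Anxa1 (-0.59) were the other falls of that list. Among mature genes, Il1r2, the decoy receptor of interleukin-1, was at 9.36 and 8.81 in the Hom-Ctrl arrays, against 10.36, 10.57 and 10.68 in the WT-Ctrl arrays (-1.45, SE 0.17, adjusted p = 0.000559 by limma), and Csf3r, the receptor of granulocyte colony-stimulating factor, at 10.16 and 9.91 in the Hom-Ctrl arrays, against 10.83, 10.81 and 11 in the WT-Ctrl arrays (-0.84, adjusted p = 0.00574 by limma). Retnlg (-1.41), the immune receptor genes Trem1 (-1.20), Trem3 (-0.79) and Pilra (-1.32), G0s2 (-0.81) and the stefins Stfa1, Stfa2, Stfa2l1 and Stfa3, whose copies the array may not tell apart, fell as well. Il1b, which encodes interleukin-1 beta, rose in the same list (1.25, adjusted p = 0.0398 by limma). Without the first Hom-Ctrl array its difference was 0.72.

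Several members of the granule lists did not pass. The Ngp values lay at the top of the scale, whose highest value was 13.47, where a difference may not show. Ngp was at 13.31 and 13.33 in the Hom-Ctrl arrays, against 13.47, 13.31 and 13.24 in the WT-Ctrl arrays (-0.02), S100a8 at 12.59 and 12.50 in the Hom-Ctrl arrays, against 13.01, 12.75 and 12.70 in the WT-Ctrl arrays (-0.27, adjusted p = 0.341 by limma) and Camp at 10.86 and 10.18 in the Hom-Ctrl arrays, against 11.49, 11.26 and 10.87 in the WT-Ctrl arrays (-0.69, adjusted p = 0.124 by limma). Among primary granule genes, the myeloperoxidase gene Mpo was at 12.18 and 12.32 in the Hom-Ctrl arrays, against 12.26, 11.97 and 12.50 in the WT-Ctrl arrays, and the elastase gene Elane at 12.38 and 12.75 in the Hom-Ctrl arrays, against 12.67, 12.53 and 12.55 in the WT-Ctrl arrays, with overlapping groups in both. Cebpe, the transcription factor of the later granulocyte stages, was at 8.95 and 8.88 in the Hom-Ctrl arrays, against 9.71, 9.27 and 9.80 in the WT-Ctrl arrays (-0.68, SE 0.17, adjusted p = 0.0331 by limma), while Cebpa, its earlier relative, differed by 0.25 (adjusted p = 0.402 by limma). Of the 55 genes of the 3 lists, 22 fell; the number was 19 without the first Hom-Ctrl array, 5 without the second and 11 with the 5 arrays fitted alone.

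**Figure D4:**
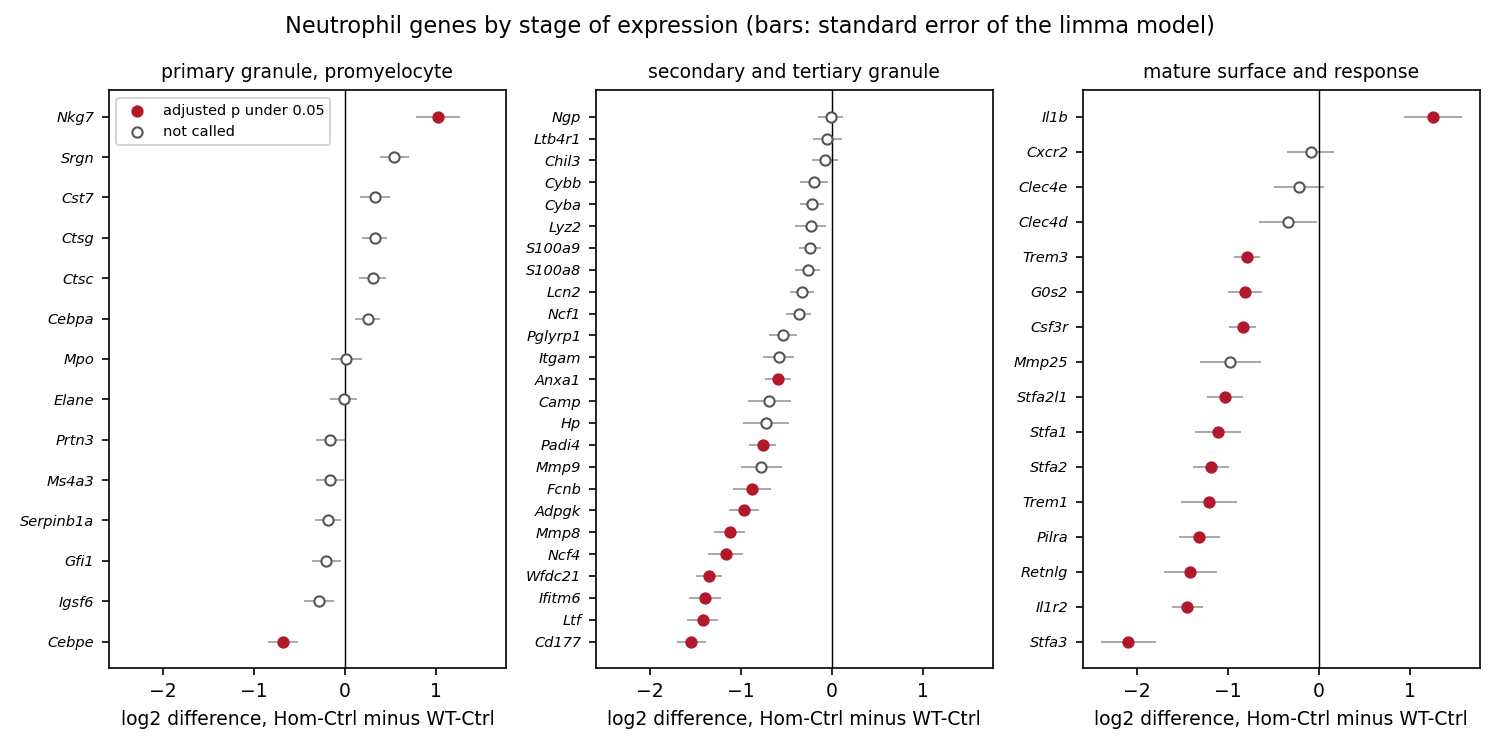
Log2 difference, Hom-Ctrl minus WT-Ctrl, of each measured neutrophil gene in the lists for primary granule, secondary and tertiary granule and mature stages. Bars are the standard error of the limma model and filled points were called. Primary granule genes lie on both sides of 0 (median -0.003), and the later lists shift to the left (medians -0.59 and -1).

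Genes of monocytes and macrophages fell in part. Of 34 measured members, 8 fell and 0 rose, against 1.88% and 2.03% of all tested probe sets, with a median of -0.36. Beside Mrc1, Arg1 and Clec5a these were F13a1, the coagulation factor XIII subunit of monocytes, at 8.34 and 7.83 in the Hom-Ctrl arrays, against 9.73, 9.84 and 9.76 in the WT-Ctrl arrays (-1.69, SE 0.18, adjusted p = 0.000336 by limma), Retnla, the Fc receptor gene Fcgr1 (-1.28), Cd300ld (-1.16) and the proteoglycan gene Vcan (-1.06). Retnla did not exceed the floor in either Hom-Ctrl array, so its fall was at least 1.48-fold (adjusted p = 0.00142 by limma). Broad markers of the lineage did not pass. Csf1r, the receptor of macrophage colony-stimulating factor, was at 9.02 and 7.78 in the Hom-Ctrl arrays, against 8.84, 9.20 and 9.14 in the WT-Ctrl arrays (-0.66, adjusted p = 0.282 by limma), with the first Hom-Ctrl array inside the WT-Ctrl range and the second below it, and Ly6c2 was at 12.37 and 12.47 in the Hom-Ctrl arrays, against 12.61, 12.52 and 12.53 in the WT-Ctrl arrays. Adgre1, the macrophage marker F4/80, differed by 0.58 (adjusted p = 0.214 by limma). The summed linear signal of the list was 33830 and 28270 in the Hom-Ctrl arrays, against 35640, 35850 and 30130 in the WT-Ctrl arrays, so the groups overlapped. The count of falls was 10 without the first Hom-Ctrl array, 3 without the second and 5 with the 5 arrays fitted alone.

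The list of inflammatory cytokines and NF-kB genes had 2 rises and 4 falls among 31 measured members. Over all tested probe sets 2.03% rose and 1.88% fell. The rises were those of the interleukin-1 genes. Il1b was at 9.55 and 8.49 in the Hom-Ctrl arrays, against 7.83, 8.21 and 7.26 in the WT-Ctrl arrays, and Il1a at 6.15 and 5.12 in the Hom-Ctrl arrays, against 4, 4.51 and 4.46 in the WT-Ctrl arrays. No WT-Ctrl array exceeded its floor for Il1a, so its rise was at least 0.96 (1.94-fold, adjusted p = 0.0194 by limma). Both cytokine genes were highest in the first Hom-Ctrl array, and the second lay close above the WT-Ctrl range. Without the first Hom-Ctrl array the difference was 0.72 for Il1b and 0.79 for Il1a, with the Il1a values under the floor taken as they are. Il1b was called in 7 of 17 alternative settings and Il1a in 11 of 16. Ccl2 (-1.14) and Ccl7 (-1.03), which attract monocytes, and Il1rn, the interleukin-1 receptor antagonist (-1.36), fell beside Ccl24. Without the second Hom-Ctrl array the differences of Ccl2, Ccl7 and Il1rn were -0.42, -0.47 and -0.59 and were not called. The number of falls was 5 without the first Hom-Ctrl array, 0 without the second, 1 without the third WT-Ctrl array and 2 without the first or the second. Tnf, which encodes tumour necrosis factor, was at 9.78 and 8.89 in the Hom-Ctrl arrays, against 9.63, 9.59 and 8.68 in the WT-Ctrl arrays, with overlapping groups.

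A minority of mast cell and basophil genes rose. Of 26 measured members, 5 rose and 0 fell, against 2.03% and 1.88% of all tested probe sets, with a median of 0.15. Ms4a2 and Fcer1a encode the beta and alpha chains of the IgE receptor. Ms4a2 was at 9.98 and 10.58 in the Hom-Ctrl arrays, against 9.14, 9.18 and 9.21 in the WT-Ctrl arrays (1.10, SE 0.18, adjusted p = 0.00341 by limma), and Fcer1a at 10.53 and 10.91 in the Hom-Ctrl arrays, against 10.20, 9.85 and 10.14 in the WT-Ctrl arrays (0.66, adjusted p = 0.0319 by limma). Slc18a2, which loads histamine and monoamines into vesicles (1.03), the receptor gene Cd200r3 (0.81) and Gata2, a transcription factor of progenitors and mast cells (0.61), were the others. The protease genes Cpa3 at 12.30 and 12.56 in the Hom-Ctrl arrays, against 12.30, 12.40 and 12.38 in the WT-Ctrl arrays (0.07) and Mcpt8 at 13.12 and 13.30 in the Hom-Ctrl arrays, against 13.10, 13.10 and 12.77 in the WT-Ctrl arrays (0.22) were at high levels in both groups and did not pass. Counts were 3 without the first Hom-Ctrl array, 0 without the second, 2 without the third WT-Ctrl array and 2 with the 5 arrays fitted alone. The summed linear signal was 63120 and 70870 in the Hom-Ctrl arrays, against 52610, 60480 and 48340 in the WT-Ctrl arrays.

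Markers of the remaining lineages showed which cells the samples could hold. Ngp, Mpo and Mcpt8, markers of lineage-committed myeloid cells, were near the top of the scale in both groups, as given above. Others were not, such as Csf1r, given above, and Siglecf, given below. Among stem and progenitor markers, Cd34 was at 9.54 and 9.49 in the Hom-Ctrl arrays, against 9.70, 9.53 and 9.33 in the WT-Ctrl arrays (-0.01) and Kit at 9.54 and 9.40 in the Hom-Ctrl arrays, against 10.09, 9.73 and 10.10 in the WT-Ctrl arrays (-0.50, adjusted p = 0.137 by limma), while Flt3 and Procr did not exceed the floor in either Hom-Ctrl array. Of the megakaryocyte and platelet list, 0 of 19 members were called by limma (3 at an unadjusted p under 0.05). Of the B lymphoid list 0 of 14 were called (1 at an unadjusted p under 0.05). Over all tested probe sets 3.91% were called, and 3774 of 22206 had an unadjusted p under 0.05 by limma. Of 17 erythroid genes, 2 rose, against 2.03% of all tested probe sets. They were Car2, a carbonic anhydrase, at 9.67 and 9.88 in the Hom-Ctrl arrays, against 8.66, 8.40 and 8.14 in the WT-Ctrl arrays (1.37, SE 0.22, adjusted p = 0.00309 by limma), and Blvrb (0.58). Siglecf, a surface lectin of eosinophils, was at 6.90 and 7.39 in the Hom-Ctrl arrays, against 8.18, 8.43 and 7.99 in the WT-Ctrl arrays (-1.05, adjusted p = 0.00354 by limma), while the eosinophil granule gene Prg2 was at 11.24 and 10.55 in the Hom-Ctrl arrays, against 11.15, 10.86 and 10.61 in the WT-Ctrl arrays. Their part in the other results was not tested.

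Nuclear genes of the respiratory chain were slightly higher on the whole, and few passed. Over all tested probe sets 2.03% rose and 1.88% fell. Of 36 complex I genes, 3 rose and 0 fell, and 32 differences were above 0 (median 0.27). Of 42 genes of complexes II to V, 4 rose and 0 fell, and 38 differences were above 0 (median 0.33). Both Hom-Ctrl arrays were above all WT-Ctrl arrays in 28 of those 42 genes, against 14.1% of all tested probe sets. Ndufb6, an accessory subunit of complex I, was at 8.84 and 8.83 in the Hom-Ctrl arrays, against 8.09, 8.03 and 8.23 in the WT-Ctrl arrays (0.72, SE 0.14, adjusted p = 0.0125 by limma). Uqcrc2, a core subunit of complex III encoded in the nucleus, was at 8.03 and 8.49 in the Hom-Ctrl arrays, against 7.68, 7.52 and 7.62 in the WT-Ctrl arrays (0.65, adjusted p = 0.0279 by limma), and Cox7a2 of complex IV at 10.29 and 10.29 in the Hom-Ctrl arrays, against 9.54, 9.77 and 9.49 in the WT-Ctrl arrays (0.69, adjusted p = 0.0253 by limma). Each of these genes was higher in both Hom-Ctrl arrays than in any WT-Ctrl array, by less than 1 log2 unit. Ndufb5 (0.72), Ndufa4 (0.67), Sdhc (0.62) and Cox6c (0.56) were the other rises. The complex I count was 0 without either Hom-Ctrl array, 5 without the first WT-Ctrl array, 1 without the second and 0 with the 5 arrays fitted alone. For complexes II to V it was 1 without the first Hom-Ctrl array, 0 without the second, 1 without the second WT-Ctrl array, 0 without the third and 0 with the 5 arrays fitted alone. Other settings raised the 2 counts, to 9 and 9 with dim probe sets left out of the test and to 6 and 10 with an intensity trend in the model. The mtDNA-encoded subunits were not analysed here.

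The enzymes that copy and transcribe mtDNA gave no calls. Of 23 measured members, 0 were called by limma (6 had an unadjusted p under 0.05), with a median of 0.04. Over all tested probe sets 3.91% were called, and 3774 of 22206 had an unadjusted p under 0.05 by limma. Tfam, which packs mtDNA, was at 6.62 and 6.70 in the Hom-Ctrl arrays, against 7.19, 6.31 and 7.05 in the WT-Ctrl arrays, and Twnk, the replicative helicase, at 5.88 and 5.91 in the Hom-Ctrl arrays, against 5.92, 5.45 and 5.80 in the WT-Ctrl arrays, with overlapping groups. Of 72 mitochondrial ribosome genes, 3 (4.17%) rose, against 2.03% of all tested probe sets, and 0 fell (median 0.14). The count was 1 without the first Hom-Ctrl array, 0 without the second and 0 with the 5 arrays fitted alone. They were Mrpl34 (0.76), Mrpl11 (0.76) and Mrps16 (0.63), and of 17 mitochondrial chaperones and proteases 1 rose, Hspe1 (0.48). Idh2, an isocitrate dehydrogenase of mitochondria, was at 10.46 and 10.47 in the Hom-Ctrl arrays, against 9.96, 9.64 and 9.77 in the WT-Ctrl arrays (0.67, SE 0.14, adjusted p = 0.0178 by limma) and was the 1 rise among 25 genes of the citric acid cycle. Of 24 glycolysis genes 0 were called by limma (1 at an unadjusted p under 0.05, median -0.05).

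Antioxidant genes were mixed. Of 38 measured members, 6 rose and 2 fell, against 2.03% and 1.88% of all tested probe sets, with a median of 0.20. Prdx1, a peroxiredoxin, was at 11.45 and 10.96 in the Hom-Ctrl arrays, against 10.35, 10.35 and 10.05 in the WT-Ctrl arrays (0.95, adjusted p = 0.0185 by limma), and catalase, encoded by Cat, at 11.04 and 11.50 in the Hom-Ctrl arrays, against 10.37, 10.66 and 10.32 in the WT-Ctrl arrays (0.82, adjusted p = 0.0138 by limma). Gsta4 (0.89) and Gsta3 (0.72), which are glutathione transferases, Prdx2 (0.58) and Ephx1, also counted with the p53 targets, were the other rises. Mgst1, a microsomal glutathione transferase, was at 11.15 and 10.69 in the Hom-Ctrl arrays, against 12.07, 11.57 and 11.76 in the WT-Ctrl arrays (-0.88, adjusted p = 0.013 by limma) and fell with the efflux pump gene Abcc4 (-0.72). The heme oxygenase gene Hmox1 (-0.24) and the NRF2 target Nqo1 (0.57, adjusted p = 0.102 by limma) did not pass. The number of rises was 1 without the first Hom-Ctrl array, 1 without the second, 3 without the third WT-Ctrl array and 1 with the 5 arrays fitted alone.

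In other metabolism, 3 of 22 genes of sterol and fatty acid synthesis rose and 0 fell (median 0.29), all 3 from the cholesterol pathway. The list's median was 0.23 for Het-Ctrl minus WT-Ctrl and 0.09 for Hom-Ctrl minus Het-Ctrl. Over all tested probe sets 2.03% rose and 1.88% fell. Cyp51 was at 9.56 and 9.71 in the Hom-Ctrl arrays, against 9.05, 8.77 and 8.22 in the WT-Ctrl arrays (0.96, adjusted p = 0.0228 by limma), Hmgcs1 rose by 0.95 and Fdft1 by 0.74. The count was 0 without the second Hom-Ctrl array, 0 without the third WT-Ctrl array and 0 with the 5 arrays fitted alone. In methionine salvage and polyamine synthesis, 2 of 20 genes rose and 1 fell. Mtap, given above, rose, Srm, the spermidine synthase, was at 10.51 and 10.81 in the Hom-Ctrl arrays, against 9.68, 9.62 and 10.29 in the WT-Ctrl arrays (0.80, adjusted p = 0.0308 by limma), and Cth was the fall. Of 29 genes of folate and nucleotide metabolism, the mitochondrial folate enzymes Mthfd2 and Mthfd1l (-0.76) fell and the deoxycytidylate deaminase gene Dctd (0.78) rose.

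Of 12 genes of the BCL2 family, 2 fell and 0 rose, against 1.88% and 2.03% of all tested probe sets. Bcl2a1b was at 7.16 and 6.54 in the Hom-Ctrl arrays, against 8.21, 8.51 and 8.55 in the WT-Ctrl arrays (-1.58, SE 0.20, adjusted p = 0.000846 by limma), and Bcl2a1d at 6.67 and 5.99 in the Hom-Ctrl arrays, against 7.59, 7.87 and 7.88 in the WT-Ctrl arrays (-1.45, adjusted p = 0.000853 by limma). They encode near-identical copies of the survival protein A1, so the 2 probe sets may read the same transcripts. Mcl1, another survival gene of myeloid cells, was at 10.40 and 10.33 in the Hom-Ctrl arrays, against 10.46, 10.82 and 10.50 in the WT-Ctrl arrays (-0.23, adjusted p = 0.477 by limma). Among blood growth factor receptors and their signalling genes, Csf3r, Csf2ra (-0.90) and Il6ra (-1.16) fell and the kinase gene Pim2 (1.17) rose, of 23 measured. With the 5 arrays fitted alone 0 of the falls were called. The Pim2 difference ran from 0.48 to 1.85 over 17 alternative settings, and Pim2 was called in 7 of them. Max, the partner of the MYC proteins, was at 8.87 and 8.77 in the Hom-Ctrl arrays, against 9.54, 9.26 and 9.76 in the WT-Ctrl arrays (-0.70, adjusted p = 0.0194 by limma), while Myc was at 11.19 and 11.34 in the Hom-Ctrl arrays, against 11.45, 11.39 and 11.38 in the WT-Ctrl arrays (-0.14, adjusted p = 0.73 by limma). Of 37 interferon response genes, Bst2, which tethers budding virus, was at 10.11 and 9.91 in the Hom-Ctrl arrays, against 8.89, 8.58 and 8.68 in the WT-Ctrl arrays (1.30, SE 0.14, adjusted p = 0.000377 by limma), and Gbp2 rose by at least 1.09, since no WT-Ctrl array exceeded its floor, with a list median of 0.12.

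Genes of DNA replication and mitosis gave no calls. Of 40 DNA replication genes, 34 mitosis genes and 19 replication histones, 0 were called by limma, against 3.91% of all tested probe sets. At an unadjusted p under 0.05 by limma there were 8, 7 and 13, against 3774 of all 22206 probe sets. The histone genes had a median of -0.43. Of the 19, 15 were lower in both Hom-Ctrl arrays than in any WT-Ctrl array, against 13.7% of all tested probe sets. H2ac8 was at 11.87 and 11.81 in the Hom-Ctrl arrays, against 12.44, 12.16 and 12.72 in the WT-Ctrl arrays (-0.60, adjusted p = 0.0552 by limma), and the linker histone gene H1f5 at 10.53 and 10.24 in the Hom-Ctrl arrays, against 10.84, 10.82 and 10.93 in the WT-Ctrl arrays (-0.48, adjusted p = 0.0634 by limma). Mki67, a marker of cycling cells, was at 11.55 and 11.73 in the Hom-Ctrl arrays, against 11.70, 11.64 and 11.94 in the WT-Ctrl arrays, with overlapping groups. Hypoxia genes had a median of -0.42 over 19 members, with 1 fall among them, that of the mitophagy receptor gene Bnip3l (-0.59). The list's mean value was 8.62 and 8.56 in the Hom-Ctrl arrays, against 9.10, 9.14 and 8.48 in the WT-Ctrl arrays, so the groups overlapped. The Het-Ctrl arrays were at 9.18, 9.11 and 8.53, so replicate 3 was lowest in the WT-Ctrl and in the Het-Ctrl cells. Hom-Ctrl cells have no array in the run of sample codes that holds these replicates. Between single Hom-Ctrl and WT-Ctrl arrays of the same run, the list's median difference was -0.65 and -0.62. The part of the run in the overlap was not tested. Vegfa was at 9.64 and 9.03 in the Hom-Ctrl arrays, against 9.86, 10.01 and 9.95 in the WT-Ctrl arrays (-0.60, adjusted p = 0.0584 by limma).

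The heterozygous cells with the same vector were set beside these genes. Hom-Ctrl and Het-Ctrl cells differed in 533 probe sets (2.4%), 297 higher (1.34%) and 236 lower (1.06%) in Hom-Ctrl cells, and Het-Ctrl and WT-Ctrl cells in 0 (935 at an unadjusted p under 0.05, smallest adjusted p = 0.878, by limma). These comparisons share arrays with the one above. The 450 probe sets called higher in Hom-Ctrl cells had median differences of 0.72 from Het-Ctrl cells and, for Het-Ctrl minus WT-Ctrl, of 0.11. For the 418 called lower they were -0.73 and -0.13. Cd177 was at 10.66, 10.71 and 10.63 in the Het-Ctrl arrays and Chac1 at 7.58, 7.93 and 7.99, so all of these values lay above both Hom-Ctrl arrays, and 2 of the 3 Chac1 values lay within the WT-Ctrl range.

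The genotype difference was also read with the NMyc vector. Its arrays do not enter the Hom-Ctrl and WT-Ctrl means, but they enter the estimate of spread behind the calls. The labels do not say whether the same mice or preparations gave both, and some sample codes run together across the vectors. Between Hom-NMyc and WT-NMyc cells 0 probe sets were called by limma (1873 at an unadjusted p under 0.05, smallest adjusted p = 0.127). Of the 450 sets called higher in Hom-Ctrl cells, 394 (87.6%) also had a difference above 0 between Hom-NMyc and WT-NMyc, with a median of 0.33, against 50.4% of all tested sets. Of the 418 called lower, 249 (59.6%) had one below 0, with a median of -0.08, against 49.6% of all tested sets. With NMyc, Hom minus WT was 0.83 for Cdkn1a, 0.74 for Eda2r, 0.27 for Mtap and 0.48 for Zmat3, against -0.27 for Cd177, -0.50 for Clec5a and -0.60 for Mrc1. The p53 lists had a median of 0.17, and the secondary granule and mature neutrophil lists had medians of -0.04 and -0.06.

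Whether the genotype difference itself changed with the vector was tested as a difference of differences. Of 22206 probe sets, 18 (0.0811%) were called by limma, 16 of them (0.0721% of the tested sets) with a more positive difference with NMyc. Cth moved most. With NMyc its difference was 1.24, and with Ctrl -1.20, so that they differed by 2.44 (SE 0.36, adjusted p = 0.0147 by limma). Chac1 (0.62 with NMyc and -1.20 with Ctrl) and Vldlr (0.53 with NMyc and -0.94 with Ctrl) likewise had differences of opposite sign. Ptgds was called with the opposite sign, but its group means with NMyc were under the floor, so its difference there was not measured.

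**Figure D5:**
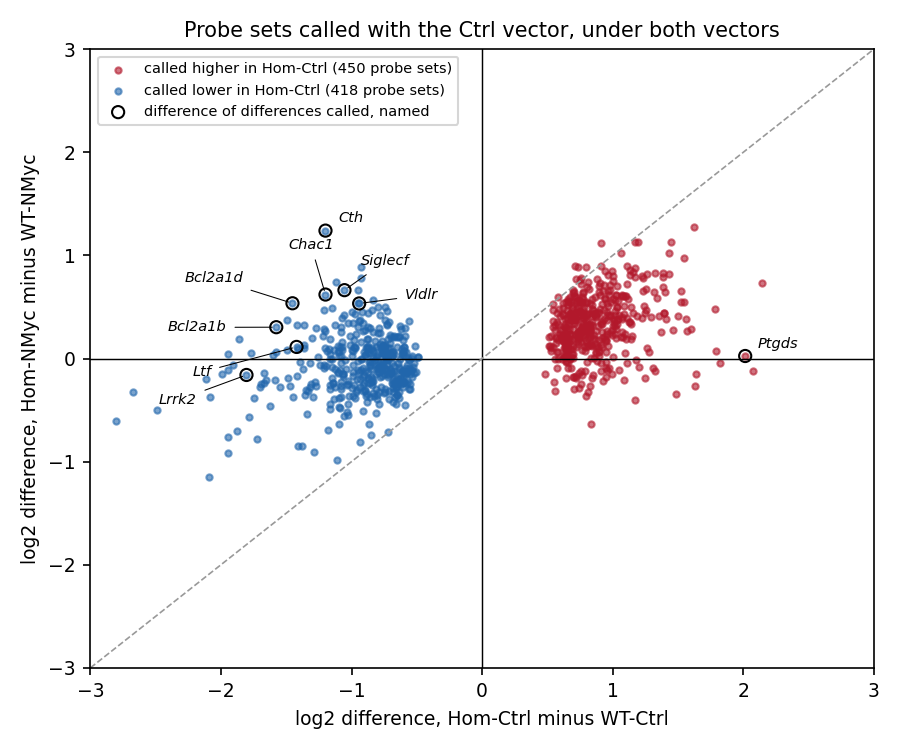
Log2 difference between Hom and WT cells with the Ctrl vector (horizontal) and with the NMyc vector (vertical) for the 868 probe sets called with Ctrl; the dashed line marks equal differences, and circles mark the named genes whose differences differed between the vectors. Ptgds was under the floor in WT-Ctrl cells and in both NMyc groups. Most sets called higher lie above 0 with NMyc (87.6%), and those called lower lie on both sides of 0 (59.6% below).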

How the data were processed

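The authors deposited log2 values, 1 for each probe set on each array. Per the submitters' processing notes they came from Affymetrix Expression Console. Which version, summary and normalization were used is not given in the sources used here. Nothing was rescaled, and scaling before deposit can remove a change shared by most transcripts. The table holds 28846 probe sets. Control sets recognised by their IDs (6640) were left out, and 22206 were tested. On each array the median of the negative control sets served as the floor for bounds. Gene symbols came from the platform annotation, and an update through RefSeq (GRCm38.p6) altered 0 of them. There were 19572 probe sets with 1 symbol (19505 distinct), 2634 unnamed and 0 columns of other samples. Where a symbol had several sets (55 symbols), the brightest over the 14 arrays stood for it.

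A model of 6 group means was fitted to the 14 arrays in limma 3.58.1 under R 4.3.3 (lmFit and eBayes, two-sided, with 8 residual and 7.3 prior degrees of freedom). Every adjusted p is limma's, with Benjamini-Hochberg adjustment over all tested sets, and a call means an adjusted p under 0.05. Nothing says that arrays came from separate mice, so p-values cover only the spread between these samples. The scripts were tested on simulated data.

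Genes were named by rule. The rule took up to 15 rises and 15 falls, the largest among called, non-overlapping sets of 1 symbol (predicted genes left out), the defining members of 53 lists (1316 of 1440 entries measured), up to 6 further members with the smallest p of each list that holds a call, and genes set by name, of which Mycn, Myc and Polg are analysed here. Y-linked genes, and members named beyond the rule as examples, were picked with their values in view. The members and lists were chosen with earlier results of these data known. Replicate numbers were not treated as pairs, since the labels tie them to no shared mouse or day. Alternatives covered the arrays fitted, the replicate block, the run of sample codes, scaling, control sets, dim sets, a mean trend, array weights and each array left out.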

Additional observations from a re-analysis of the deposited data

Results flagged for a closer look

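In 9 named genes the difference between Hom and WT cells was not the same with the 2 vectors, by the limma test of the difference of differences over all 14 arrays, and the cause was not tested. Each value below is the Hom minus WT difference with NMyc minus that with Ctrl, on the log2 scale. Cth, the cysteine-producing enzyme, stood at 2.44 (adjusted p = 0.0147), and its Hom minus WT difference was 1.24 with NMyc and -1.20 with Ctrl. Chac1 was at 1.82 (adjusted p = 0.0131) and Vldlr at 1.48 (adjusted p = 0.0131), and both belong to the ATF4 list with Cth. The survival genes Bcl2a1d and Bcl2a1b were at 1.99 and 1.88 (adjusted p = 0.0131 and 0.0251), and may share transcripts. Siglecf was at 1.72 (adjusted p = 0.0147) and Lrrk2 at 1.65 (adjusted p = 0.0365). With NMyc the means of Bcl2a1d were 5.31 in Hom and 4.77 in WT cells, and those of Lrrk2 4.88 and 5.03. These lay not far above the floor, so the differences of both genes with NMyc are less well measured. Ltf was at 1.53 (adjusted p = 0.0318), with a mean of 9.54 in Hom-NMyc cells and 9.42 in WT-NMyc cells. Ptgds ran the other way, at -1.99 (adjusted p = 0.0147), with means of 3.79 in Hom-NMyc cells and 3.76 in WT-NMyc cells. These and its WT-Ctrl values lay under the median of the arrays' negative control sets, so its value is no exact difference. With 2 arrays in 3 of the 4 groups, these values rest on 9 arrays. Groups of 2 or 3 arrays were too small for a test of single outlying arrays.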

How the results depend on the processing

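The 868 calls (450 higher, 418 lower in Hom-Ctrl cells) were recomputed under 17 alternatives. With the 8 Ctrl arrays alone there were 332 calls (144 higher, 188 lower), with the 5 arrays alone 182 (78 higher, 104 lower), with array weights 352 (170 higher, 182 lower), and with only the AFFX control sets left out 404 (193 higher, 211 lower), where more sets were tested. With dim probe sets left out, 1273 of 8061 were called, 700 higher and 573 lower. With the replicate number as a block the count was 297 (119 higher, 178 lower) over the 8 Ctrl arrays and 677 (330 higher, 347 lower) over the 5 arrays. In deviations from the group means, the first Hom-Ctrl array correlated best with the WT-Ctrl array of its number (0.194). For the second the value was 0.026, against 0.161 with number 3. With only 2 Hom-Ctrl arrays these deviations mirror each other, so the second is no separate check and pairing was not decided. With the run of sample codes as a term there were 984 calls. Leaving out 1 array gave 99 to 928 calls, 43 to 509 higher and 56 to 436 lower. The lowest values came without the second Hom-Ctrl array, and falls numbered 271 without the first Hom-Ctrl array and 248 without the third WT-Ctrl array. Of 149 named genes that were called, 22 were called under all 17 alternatives, Cdkn1a, Zmat3, Chac1, Vldlr, Ltf, Cd177 and Clec5a among them, and 9, such as Eda2r, under the 16 that kept them. None of the called genes changed direction in these 17 settings. The cause of the moves was not tested. Fewer arrays leave fewer degrees of freedom. Signal limits Eda2r, Ptgds, Retnla, Il1a, Gbp2, Muc15, Il2ra and Slfn4, which did not exceed the negative control median on 1 or more arrays. The setting without dim sets kept those above percentile 95 of the negative controls on at least 2 of the compared arrays. It also left out other called genes, among them Olfr266, Pparg, Lrrk2, Il1rl2, Mrgpra2a, Phlda3 and Ephx1, whose signal is thus low too.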

Other observations

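Some gene groups outside those above held single changes, where 2.03% of all tested probe sets rose and 1.88% fell. Of 28 lysosomal genes, the hydrolase genes Lipa (0.91, adjusted p = 0.00862 by limma) and Gaa (0.80, adjusted p = 0.00521 by limma) rose, and Tfec, a transcription factor related to the lysosomal regulators, fell, at 9.41 and 8.86 in the Hom-Ctrl arrays, against 10.41, 10.30 and 10.13 in the WT-Ctrl arrays. Of 34 lineage transcription factors 2 rose and 3 fell. Ikzf2 rose (0.79) beside Gata2, and Lyl1 (-0.79) and Cebpd (-0.66) fell beside Cebpe. The number of these falls was 0 without either Hom-Ctrl array or without the third WT-Ctrl array, and 1 without the first or the second.

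Of 21 T and NK cell genes, the co-receptor gene Cd28 was lower, at 6.17 and 6 in the Hom-Ctrl arrays, against 6.88, 6.93 and 7.18 in the WT-Ctrl arrays, and Nkg7, a granule membrane protein, was higher, at 10.63 and 10.91 in the Hom-Ctrl arrays, against 10.32, 9.62 and 9.31 in the WT-Ctrl arrays. Of 21 eicosanoid genes, Ptger2, a prostaglandin E2 receptor, fell (-1.15, adjusted p = 0.0118 by limma) while Ptgds rose. Clec4a2, a lectin receptor of myeloid cells, fell with Clec5a (-1.19, adjusted p = 0.0104 by limma). Immediate early genes gave 0 calls of 27 by limma (5 at an unadjusted p under 0.05), with a median of -0.17. Over all tested probe sets 3.91% were called, and 3774 of 22206 had an unadjusted p under 0.05 by limma.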
